A study of Mus musculus with 3 samples.

Results

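Genes of the primary cilium and of intraflagellar transport (IFT) were followed in RNA of sorted olfactory cells. The set was defined by gene symbol alone. It covers the IFT subunits and their motors, the Bardet-Biedl (Bbs) proteins, the transition zone proteins and nephrocystins, and a few basal body proteins. Also covered are the Arl and Tulp proteins. Except for Arl6 they are grouped below as ciliary membrane cargo, a group name rather than a role shown for each. The set took 64 of the 34617 gene rows of the table. Main olfactory epithelium of mice was the source of the 3 samples of the series, of which 2 are RNA libraries. The mOSN library came from OMP-ires-EGFP positive cells, in which EGFP is expressed together with the olfactory marker protein gene Omp, of strain C57BL/6J. The O/Tet3 library came from sorted cells of OMP-tTA / tetO-Tet3-GFP mice of strain Fvb (the label does not name the marker used for sorting), in which a transactivator at Omp switches on a Tet3-GFP transgene. All mice were 4 weeks old. The remaining sample, DNA of OMP-tTA / tetO-Tet3-GFP mice immunoprecipitated for 5-hydroxymethylcytosine, is not analysed here. Each group has 1 library, so that genotype, strain and library cannot be told apart, and no difference below has a test or a replicate error.

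The olfactory neuron ends in a tuft of cilia that lie in the mucus, and the odorant receptors and their signalling proteins sit in the ciliary membrane. Cilia are built and kept up by IFT trains. The IFT-B complex and the kinesin-II motor carry cargo from the base to the tip, and the IFT-A complex and the dynein-2 motor return it. The BBSome, a coat of Bbs proteins, moves membrane proteins on these trains, and the transition zone at the ciliary base acts as a gate. Loss of Bbs proteins is known for loss of smell in mice and people.

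The labels were first checked against their genes. Tet3, the gene of the transgene, measured 3.72 in mOSN, whose label names no transgene, and 145 in O/Tet3. Its single row does not separate transcripts of the transgene from those of the endogenous gene. All 6 markers of mature olfactory neurons were detected in both libraries, and each was lower in O/Tet3 by more than the 2-fold used below. Their summed value was 2690 in mOSN against 622, a 4.32-fold difference. Omp was at 298 and 139, the adenylyl cyclase gene Adcy3 at 115 and 29.7, and the channel gene Cnga2 at 238 and 37.9. In bulk RNA, fewer cells of a type and less RNA per cell cannot be told apart. The deposited numbers are log2(value + 1). A value is the linear number recovered from them, printed to the digits that Cuffdiff gives for FPKM (reads per length and depth), though the table does not name its unit. A log2 ratio is the deposited O/Tet3 number minus the mOSN one, so that the 1 added to each value dampens the differences of low genes, and a fold is the ratio of the values themselves.

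A sequence feature that the choice of genes did not use was looked at in the promoters, since RFX transcription factors, known regulators of ciliary genes, bind a motif called the X-box. The X-box was searched on both strands as GTNNCC, any 3 bases, then GNAAC, and in a stricter form contained in the first, GTTNCC, any 2 bases, then GGNAAC, in windows from 250 bases before to 50 after each annotated start (RefSeq, GRCm38.p6, matched by symbol). Of the 64 genes, 56 had a window, and 14 of these (25%) held a match, against 2.49% of all 27025 genes with a window and 3.54% of the 8086 compared genes with one. In a wider list of ciliary genes outside the 64 it was found in 2 of 37 (5.41%). The stricter form was found in 5 of the 56 (8.93%) and in 0.53% of all genes. The 6 matches that lie wholly before the start are shown, with the X-box in capitals and up to 8 flanking bases, on the strand of the gene, to show the letters found and their surroundings; what they share was set by the search. For Ift57 and Tctn2 the match is on the opposite strand, so that the capitals read as its reverse complement.
Bbs7, minus strand, chr3:36613489-36613518: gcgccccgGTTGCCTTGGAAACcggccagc
Mks1, plus strand, chr11:87853183-87853212: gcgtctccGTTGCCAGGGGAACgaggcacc
Ttc30a2, minus strand, chr2:75978182-75978211: gttggcttGTTGCCATGGGAACaagcacac
Ift57, plus strand, chr16:49699199-49699228: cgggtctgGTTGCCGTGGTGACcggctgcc
Tctn2, plus strand, chr5:124598679-124598708: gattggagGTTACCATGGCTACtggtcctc
Nphp4, plus strand, chr4:152477903-152477932: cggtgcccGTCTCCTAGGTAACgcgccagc
The first 3 carry the stricter form. The matches begin 121, 24, 24, 87, 62 and 231 bases before the start, in the order shown. The other 8 genes with a match, which begins at or after the start, were Ahi1, B9d2, Bbs1, Bbs4, Tctn1, Tmem216, Tmem231 and Tulp4. By role, a match was found in 8 of 15 transition zone genes, 3 of 10 BBSome genes, 2 of 12 IFT-B genes and 1 of 7 membrane cargo genes, and in none of the 4 IFT-A, 6 motor and 2 basal body genes with a window. A match is a description of these letters and not a binding site.

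**Figure D1:**
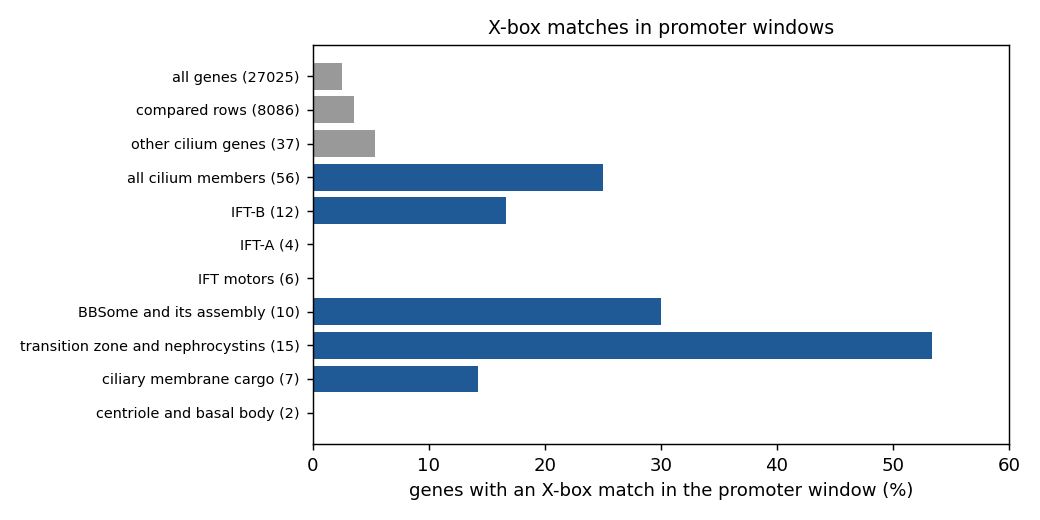
Share of genes with an X-box match in the promoter window (x axis, percent), with the number of genes that have a window in brackets. The cilium genes are at 25% and their transition zone group at 53.3%, above the 2.49% of all genes, while the IFT-A, motor and basal body groups are at 0.

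The question for the expression data was whether transcripts of cilium genes differ when Tet3 is overexpressed. Most were at like values in both libraries. All 64 were above 0 in each, and the 60 that reached a value of 1 in at least one library were compared. Of these, 53 (88.3%) were within 2-fold of value + 1, 6 (10%) were lower in O/Tet3 by 2-fold or more, and 1 (1.67%) was higher by as much. Over all 12943 compared rows, 71.5% were within 2-fold and 28.5% past it, 12.0% lower and 16.5% higher. The lower genes included Traf3ip1, Tmem231, Tulp3, Ift140 and Tctn3, and the higher gene was Kif3a. The share of lower genes was thus near that of all rows, and the share of higher genes below it.

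The members' log2 ratios were spread over a narrower range than those of all rows. Their median was −0.15, with quartiles of −0.43 and 0.27, and the median of all compared rows was 0.21, with quartiles of −0.39 and 0.75. Of the 60 genes, 20 had a log2 ratio above 0 and 40 below. The summed value of the 64 genes was 1076 in mOSN and 1008 in O/Tet3, or 1.07-fold lower, beside the 4.32-fold lower sum of the mature neuron markers. The Pearson correlation of log2 values between the libraries was 0.88 across the 60 genes and 0.75 across all compared rows; both are across genes, which are not replicates. The median log2 ratio of the rows that reached a value of 1 in both libraries was 0.21. Relative to that shift, 10 cilium genes were lower and 0 higher, where 15.1% of all rows were lower and 11.3% higher, and the higher rows made up 42.8% in place of 57.9% of all called rows.

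Several genes lie close to the 2-fold line. Kif3a was just past it, at a log2 ratio of 1.01. Bbs7 at −0.997, Ift122 at −0.99, Ift57 at 0.99, Ift27 at 0.94 and Arl3 at −0.92 were just within it. These 6 should be read by their values rather than by the side on which they fall.

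**Figure D2:**
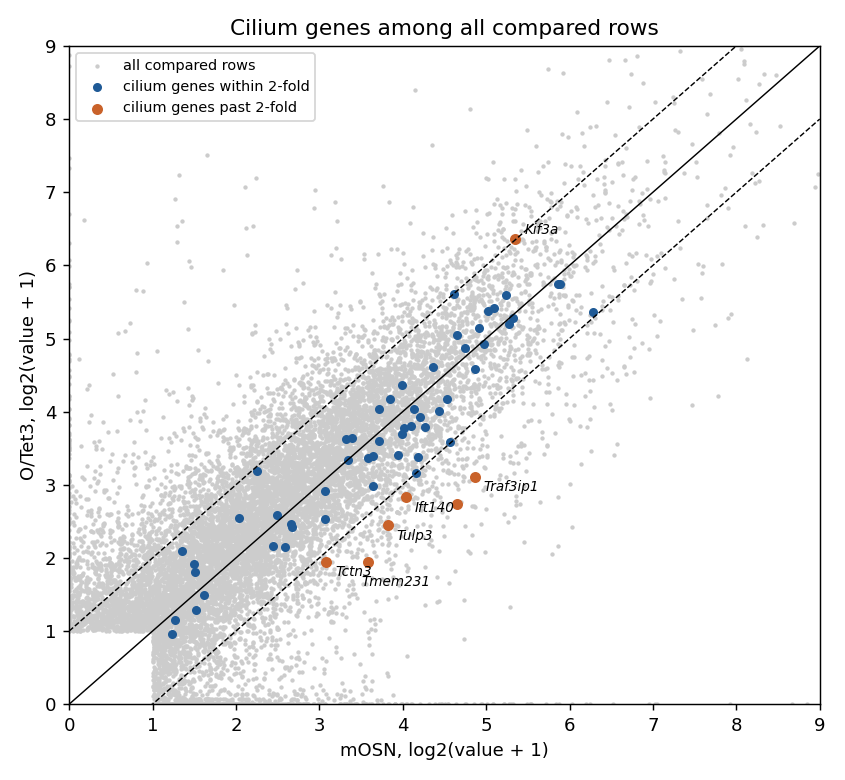
Log2(value + 1) in mOSN (x axis) and O/Tet3 (y axis) for all compared rows (grey) and the 60 compared cilium genes (coloured), with lines of equality (solid) and 2-fold difference (dashed). The 6 lower genes sit below the lower dashed line and Kif3a on the upper one; the axes end at 9, which leaves out 51 grey rows.

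The cilium genes were well represented in both libraries. Their median value came to 14.9 in mOSN and 11.0 in O/Tet3, against 4.08 and 4.81 for all compared rows, and a value of 10 was reached by 40 of the 64 in mOSN and by 31 in O/Tet3. In mOSN the highest was Arl3 at 76.6, followed by Tulp4 at 58.2, Ift80 at 57.3, Kif3a at 39.8 and Ift74 at 39.0. In O/Tet3 the order was Kif3a at 80.9, Ift80 at 52.8, Tulp4 at 52.6, Ift57 at 47.8 and Ift46 at 47.3. The levels of Ift80 and Tulp4 lie close to each other in both libraries, with no error by which to rank them. The 4 genes under a value of 1 in both libraries included Rpgrip1 at 0.0522 and 0.0522, Tulp1 at 0.0809 and 0.285, and Tulp2 at 0.111 and 0.0395. At such values few reads are behind each number. Tulp1 and Rpgrip1 are known from photoreceptors.

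**Figure D3:**
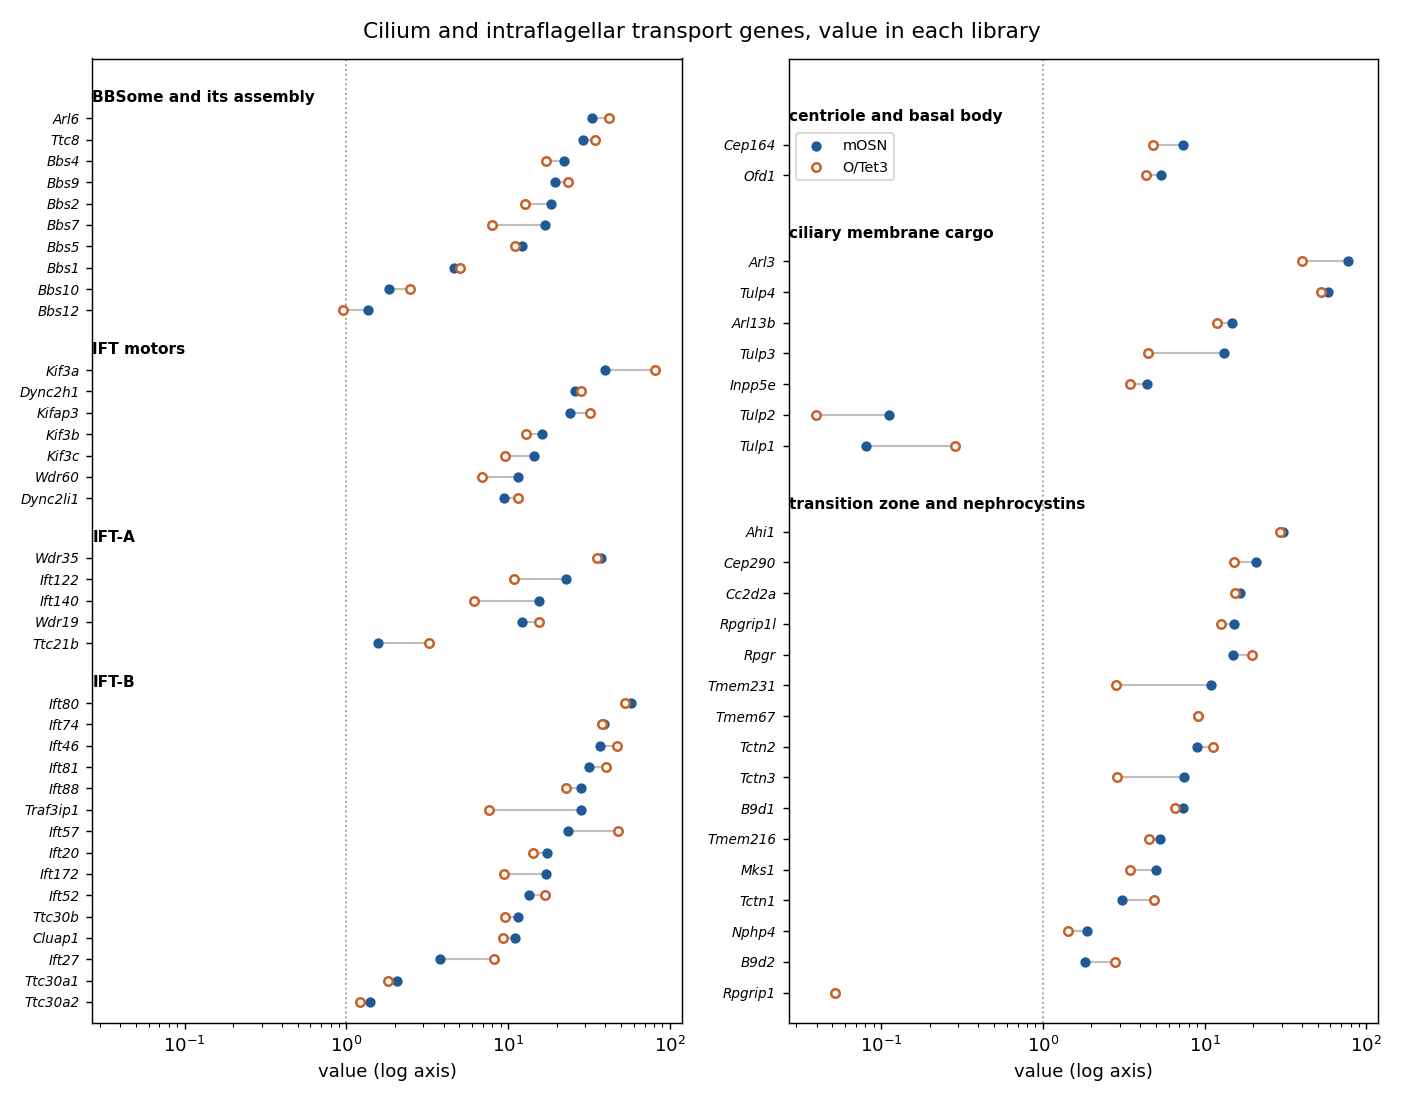
Value of 62 of the 64 genes in mOSN (filled blue) and O/Tet3 (open orange) on a log axis, grouped by role, with a dotted line at the value of 1. Most pairs lie close together; Traf3ip1, Tmem231, Tulp3, Ift140 and Tctn3 have their O/Tet3 point well to the left, and Kif3a has it to the right. For Rpgrip1 and Tmem67 the points coincide.

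The IFT-B complex, which carries cargo to the ciliary tip, had 15 members with a row, all compared, and a median log2 ratio of −0.12. Of these, 14 were within 2-fold and 1, Traf3ip1, was lower (6.67%, beside 12.0% of all compared rows). Traf3ip1, which encodes the subunit IFT54, measured 28.1 in mOSN and 7.63 in O/Tet3, or 3.68-fold lower (log2 ratio −1.75). Its binding partner Ift20, which brings membrane proteins from the Golgi to the cilium, was at 17.4 and 14.2. The ratio of Traf3ip1 to Ift20 within a library was therefore 1.61 in mOSN and 0.538 in O/Tet3.

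Most of the other IFT-B genes were at closer values, with differences in both directions. Ift88, whose loss abolishes cilia, was at 28.1 and 22.9, and its neighbour in the complex Ift52 at 13.4 and 17.0. Ift74 and Ift81, which bind tubulin together, were at 39.0 and 38.0 and at 31.6 and 40.4. Ift46 was at 36.9 and 47.3. Ift80 and Ift172, subunits of the peripheral part, were at 57.3 and 52.8 and at 17.2 and 9.41. The peripheral subunit Ift57, whose span overlaps Gm15518 and Gm52251 in the annotation, was at 23.6 and 47.8, just within 2-fold of value + 1. Ift27, a small GTPase that helps the BBSome leave the cilium, was at 3.77 and 8.14, also just within it. Cluap1 (IFT38) was at 11.0 and 9.27. The IFT70 paralogs Ttc30a1, Ttc30a2 and Ttc30b were at 2.07 and 1.82, at 1.41 and 1.22 and at 11.5 and 9.53; they are close paralogs, so that the split of reads among them is uncertain. The summed IFT-B value came to 322 in mOSN and 327 in O/Tet3.

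The IFT-A complex, needed for return transport and for the entry of membrane receptors, was less even. Of 5 members, 1 was lower and 4 were within 2-fold, where 12.0% of all compared rows were lower. The median log2 ratio of the 5 was −0.07. Ift140 measured 15.4 in mOSN and 6.12 in O/Tet3, or 2.52-fold lower (log2 ratio −1.21), and Ift122 at 22.8 and 10.9, 2.08-fold lower in its values. The subunit Ift43, outside the 64 because its row bears the older name 1700019E19Rik, was at 29.3 and 16.9 (log2 ratio −0.76). For the other subunits, Wdr19 (IFT144) was at 12.1 and 15.5, Wdr35 (IFT121) at 37.6 and 35.7, and Ttc21b (IFT139) at 1.56 and 3.26. Ift140 per Wdr19 was 1.27 in mOSN and 0.396 in O/Tet3. Ift140 overlaps Tmem204 and Ift122 overlaps Mbd4 in the annotation, and reads of overlapping genes could not be separated.

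Tulp3, an adaptor that IFT-A uses to bring G protein-coupled receptors into cilia, was also lower. It measured 13.1 in mOSN and 4.45 in O/Tet3, or 2.95-fold lower (log2 ratio −1.38). Among the other genes of the membrane cargo group, Tulp4 was at 58.2 and 52.6, and Arl13b, a GTPase of the ciliary membrane, at 14.9 and 11.9. Inpp5e, the phosphatase that sets the phosphoinositides of that membrane, was at 4.43 and 3.46. Arl3, the GTPase that releases lipid-anchored proteins inside the cilium, was at 76.6 and 40.1 and so was the highest cilium gene in mOSN and the 8th in O/Tet3. All 5 compared genes of this group had a log2 ratio below 0, with a median of −0.30. Of the 5, 1 was past 2-fold, beside 28.5% of all compared rows.

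The motors that drive the trains differed among themselves. Kif3a, a motor subunit of kinesin-II, measured 39.8 in mOSN and 80.9 in O/Tet3, or 2.04-fold higher. Its heterodimer partner Kif3b was at 16.1 and 13.0, the alternative partner Kif3c at 14.4 and 9.59, and the cargo adaptor Kifap3 at 24.2 and 32.0. Kif3a per Kif3b was thus 2.47 in mOSN and 6.24 in O/Tet3. The Kif3a span overlaps A430108G06Rik in the annotation. For dynein-2, the heavy chain Dync2h1 was at 25.9 and 28.1, the light intermediate chain Dync2li1 at 9.47 and 11.5, and the intermediate chain Wdr60 at 11.5 and 6.93. The median log2 ratio of the 7 motor genes was 0.12, and −0.09 relative to the shift of all rows.

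Of the BBSome and the proteins that assemble it, 0 of 10 genes were past 2-fold, beside 28.5% of all compared rows. The median log2 ratio of the 10 was −0.01. Mkks (BBS6), a chaperonin-like assembly protein whose symbol falls outside the 64, was past it, with values of 3.32 and 8.42 and a log2 ratio of 1.13. Ttc8 (BBS8) measured 29.1 in mOSN and 34.3 in O/Tet3, Bbs4 at 22.1 and 17.1, Bbs9 at 19.6 and 23.4, and Bbs2 at 18.3 and 12.8. Bbs7 had the largest difference, at 16.9 and 7.96. Bbs5 was at 12.2 and 11.1, and Bbs1, through which the coat meets its GTPase, at 4.63 and 5.04. That GTPase, Arl6 (BBS3), was at 33.1 and 41.8. The chaperonin-like Bbs10 and Bbs12 were low, at 1.84 and 2.49 and at 1.35 and 0.954. The summed value of the 10 genes was 159 and 157.

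The transition zone, the largest role group, had 3 of 16 compared genes lower (18.8%) and 0 higher, with a median log2 ratio of −0.17. Over all compared rows, 12.0% were lower and 16.5% higher. The lower share was 20% in IFT-A and in membrane cargo, from 1 of 5 genes each. Nphp4, a nephrocystin of the gate, was at 1.86 and 1.44. Tmem231, a membrane protein of the Meckel (MKS) module, was at 11.0 and 2.84, 3.88-fold lower (log2 ratio −1.65). Tctn3, one of the tectonics, was at 7.47 and 2.86, 2.61-fold lower (log2 ratio −1.13). Tmem231 overlaps Gm36531 in the annotation, whereas Tctn3 overlaps no annotated coding or long noncoding gene.

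Other parts of the same module were closer. Tctn1 and Tctn2 were at 3.09 and 4.85 and at 8.99 and 11.3, both above their mOSN value where Tctn3 was below it. Tmem67, the membrane receptor of the module, was at 9.15 and 9.14, Tmem216 at 5.31 and 4.52, and Mks1 at 5.03 and 3.44. The B9 proteins B9d1 and B9d2 were at 7.36 and 6.52 and at 1.83 and 2.78. The large scaffold proteins had some of the highest levels of the group: Ahi1 was at 30.4 and 29.4, Cep290 at 20.7 and 15.1, Cc2d2a at 16.6 and 15.5, and Rpgrip1l at 15.1 and 12.7. Rpgr, a regulator of small GTPases at the ciliary base, was at 14.9 and 19.6. Of the basal body genes, Cep164, which docks the centriole to the membrane, was at 7.38 and 4.80, and Ofd1 at 5.37 and 4.34.

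**Figure D4:**
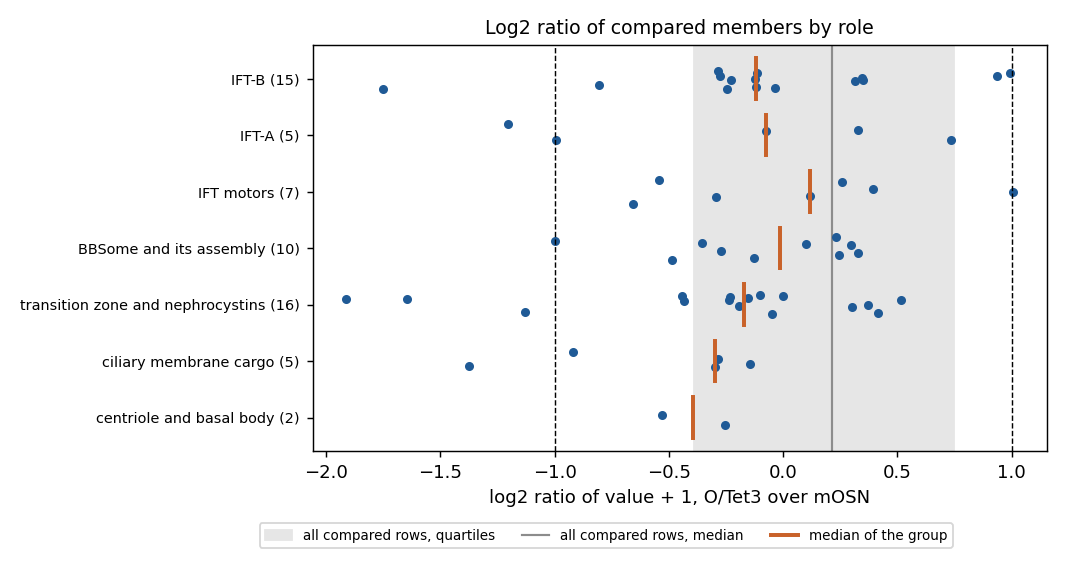
Log2 ratio of value + 1, O/Tet3 over mOSN (x axis), of each compared gene (points, spread vertically for legibility) by role, with the group median (orange), the median and quartiles of all compared rows (grey) and the 2-fold lines (dashed). The medians run from −0.39 for the basal body genes to 0.12 for the motors, all under the 0.21 of all rows.

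Genes with and without an X-box match were at overlapping log2 ratios. The 14 genes with a match had a median of −0.13 (range −1.65 to 0.99), and 1 of them, Tmem231, was lower. The 39 compared genes with a window and no match had a median of −0.23 (range −1.75 to 1.01), with 4 lower and 1 higher. For all compared rows the shares were 12.0% lower and 16.5% higher. The RFX genes themselves were led by Rfx3, a regulator of ciliogenesis, at 42.0 in mOSN and 29.1 in O/Tet3. Rfx7 was at 4.35 and 8.53, Rfx4 at 4.53 and 1.28, Rfx2 at 1.51 and 0.960, and Rfx5 at 0.933 and 1.43. Foxj1, a regulator of motile cilia, was at 10.9 and 7.22. Of the 6 compared ciliogenesis factors, Rfx4 was at least 2-fold lower (16.7%) and 0 were higher, beside 12.0% and 16.5% of all compared rows.

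A total of 4 symbols of the role lists had no row, and their genes were found under older names: Ift22 as Rabl5 at 8.40 and 7.09, Ift43 as 1700019E19Rik with the values given above, Tmem237 as Als2cr4 at 9.01 and 4.85, and Cep41 as Tsga14 at 4.74 and 8.84. None of these was past 2-fold. A wider list of 46 ciliary genes outside the 64, chosen by role, had 43 compared genes. Of these, 35 were within 2-fold, 6 lower (14.0%) and 2 higher (4.65%). Over all compared rows, 12.0% were lower and 16.5% higher, so the lower share was near that of all rows. The median log2 ratio of the wider list was 0.06, with 25 genes above 0 and 18 below. The cilium set had 20 above and 40 below. The lower genes included 2 that act with Arl3 on lipid-anchored cargo: Rp2h, which inactivates Arl3, at 71.7 in mOSN and 22.1 in O/Tet3, and Pde6d, a carrier that Arl3 unloads, at 39.0 and 16.7. Unc119 and Unc119b, carriers of myristoylated cargo, were at 1.09 and 2.42 and at 6.72 and 5.19. The distal appendage gene Fbf1 was at 19.6 and 7.23, Odf2 at 38.9 and 17.8, Azi1 at 8.27 and 3.55, and the transition zone gene Tmem17 at 4.60 and 1.56. The higher genes were Dynll1, a light chain shared by many dyneins and other proteins, at 36.8 and 114, and Mkks, given with the BBSome. Efcab7 followed at 12.1 and 21.8.

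Genes listed as markers of other cells had the values that follow, and their part in the results was not tested. Of 35 symbols of motile cilium genes, listed as markers of multiciliated cells, 30 had a row and 27 were compared. Of these, 10 were higher (37.0%) and 3 lower (11.1%), against 16.5% and 12.0% of all compared rows. Whether these genes mark another cell type in the sorted cells was not tested. Their summed value came to 397 in mOSN and 509 in O/Tet3. Among them Rsph1, a radial spoke gene, was at 24.4 and 70.7, Tekt2 at 0.156 and 18.9, and Ccdc40 at 81.5 and 32.5, while Sntn and Spag17 were listed at 0 in both libraries. Of the 8 immature neuron markers, 4 had a log2 ratio above 0 and 4 below. Gap43, Stmn1 and Sox11 were past 2-fold higher and Dpysl5 past 2-fold lower. Within 2-fold of value + 1, Ncam1 was at 82.7 and 51.7, Dcx at 29.0 and 19.1, Tubb3 at 23.6 and 13.7, and Gng8 at 0.327 and 1.60. The sums of the 8 were 157 and 163. The 7 sustentacular markers summed to 27.5 and 13.4, the 7 progenitor markers to 19.8 and 35.7, the 8 glia, blood and vessel markers to 66.4 and 40.2, and the 7 gland and microvillous markers to 4.42 and 3.71. The basal cell markers Krt5, Krt14 and Trp63 reached at most 0.116 in mOSN, and O/Tet3 lists them at 0.

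**Figure D5:**
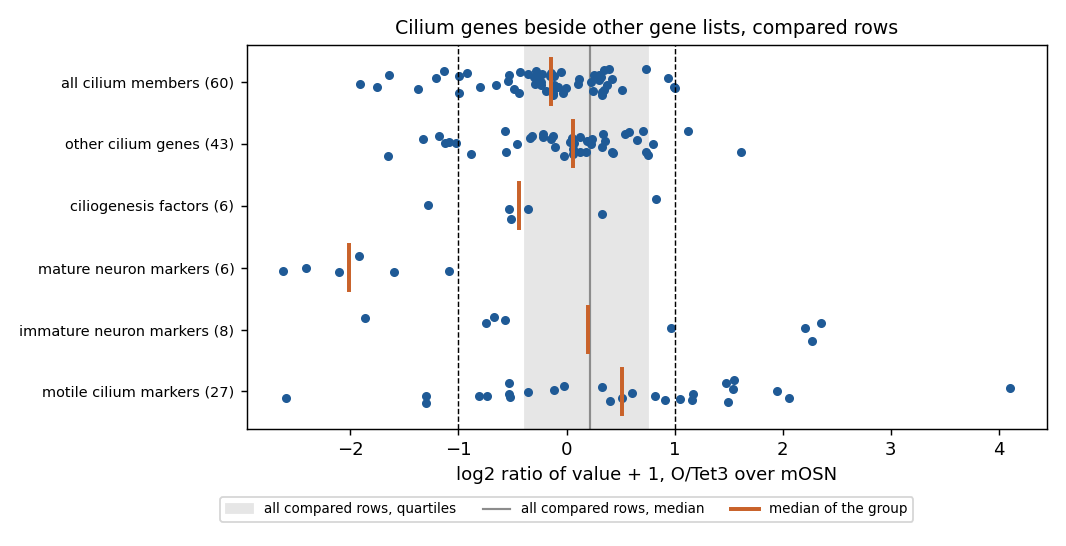
Log2 ratio of value + 1, O/Tet3 over mOSN (x axis), for the compared genes of 6 lists (points, number in brackets), with list medians (orange), the median and quartiles of all compared rows (grey) and the 2-fold lines (dashed). The cilium genes centre on −0.15 and the wider ciliary list on 0.06, while all 6 mature neuron markers lie below −1 and the motile cilium markers spread from −2.59 to 4.10.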

How the data were processed

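Per the labels' protocols, ribosomal RNA was removed from sorted-cell RNA (RiboMinus) before library making (ScriptSeq). Bowtie, Bowtie2, Cuffdiff and build mm9 are named in the submitters' processing notes, without versions or roles; annotation and strand setting are not given in the sources used here. The authors deposited 1 table of log2 values, 1 column per RNA library, and their difference. From the values, these are log2(value + 1): the linear numbers have at most 6 significant digits in 99.4% of mOSN and 99.3% of O/Tet3 values above 0.01 (relative tolerance 1e-09). Columns were assigned by their names. Read counts are not in the table, so no intervals are given. The most frequent ratio among 2687 rows below 0.3 in both libraries was 1.88, so 1 read is worth about 1.88 times as much in O/Tet3, and a value there rests on fewer reads.

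Rows that reached a value of 1 in at least one library were compared, and called at a 2-fold difference of value + 1 (Python 3.11.15, pandas 2.3.3). The calling code was run on a noiseless copy of the mOSN values with set changes in some rows. Its outcome was fixed by that construction, so it checks the code and not the error of the calls. With 1 library per group no test was made. Members and gene lists were chosen with earlier results of these data known. Named by rule were Tet3, Omp, all called members, the extremes and the highest gene of each role group, those nearest the threshold, and up to 3 genes at each end of the other lists; further genes were named, and ratios of partner genes chosen, after values were seen. Some genes of the set are counted but not reported by name here. In the RefSeq annotation, 26 of the 64 genes overlap another coding or long noncoding gene, among them 3 of the 7 called.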

Additional observations from a re-analysis of the deposited data

How the results depend on the processing

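No paired analysis was possible because there is 1 library for mOSN and 1 for O/Tet3, and for the same reason no library could be left out. The alternatives gave 60 values for the counts and medians. Of these, 44 were near the reported ones (a count within 1.5 times, a median log2 ratio within 0.1), 14 were not, and 2 medians changed sign. Some of the 44 could not differ, by construction. They include all values without rows at 0 and the counts without the floor of a value of 1. The same holds for medians without that floor in groups already wholly compared. With a pseudocount of 0.1, 4 of the 60 compared members were higher, Ift57, Ift27 and Ttc21b beside Kif3a, and 8 lower. That setting called 23.4% of all compared rows higher and 15.6% lower. At 3-fold, 0 members were higher and 3 lower, among them Traf3ip1 and Tmem231, beside 5.76% and 5.20% of all compared rows. A stricter fold calls fewer genes by construction. Centring on the median of rows that reach a value of 1 in both libraries subtracts 0.21 from every ratio. By construction this cannot add higher members or remove lower ones. It left 0 higher and 10 lower, the added ones being Arl3, Bbs7, Ift122 and Ift172. Among all compared rows, 11.3% were then higher and 15.1% lower. The centred medians were −0.35 for all members, −0.32 for IFT-B, −0.28 for IFT-A, −0.22 for the BBSome, −0.38 for the transition zone, −0.50 for membrane cargo and −0.60 for basal body genes. Centring turned the sign for the motors, to −0.090, and for the wider ciliary list, to −0.15. With a floor of 5, which leaves 4 genes in each of these groups, the median was −0.53 for IFT-A and −0.61 for membrane cargo. Leaving out rows listed at 0 could not alter the members, all above 0. For all compared rows it moved the lower share from 12.0% to 8.72%, beside 10% of the members. The higher share of all compared rows moved from 16.5% to 15.9%. Of single-gene log2 ratios, 136 of 136 alternative values lay within 0.5 of the reported one. Those from centring each moved by 0.21 by construction and could not pass that limit. Only the values with a pseudocount of 0.1 were free to do so.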

Other observations

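Genes of the Hedgehog pathway, which signals through primary cilia in many cells, were mostly near 0 in both libraries. Of 9 listed genes, 2 were compared: the receptor Ptch1, at 5.60 in mOSN and 6.10 in O/Tet3, and the Gli inhibitor Sufu, at 1.54 and 0.629. The signal transducer Smo was at 0.00578 in mOSN, with 0 listed in O/Tet3, and Gli1, Gli3 and Kif7 were listed at 0 in both libraries. Gpr161, a ciliary receptor that Tulp3 is known to bring into cilia, was at 0.0724 in mOSN, with 0 listed in O/Tet3. These are values of 1 library each, and a listed 0 can be a failed estimate.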
